A study of Rattus norvegicus with 31 samples.

Results

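The genes examined were 9 that control the flow of carbon between glucose and pyruvate: Pck1, G6pc, Fbp1, Pc, Pklr, Pfkfb1, Slc2a2, Slc2a4 and Hk2. They were chosen by name for their role in gluconeogenesis, glycolysis or glucose transport, and only probe sets annotated to one of them alone were used. This left 8 of the 9 genes, with 10 of the 31042 probe sets of the array, since Pklr and Slc2a4 each had 2 probe sets and the others 1. The 4 probe sets of G6pc, which the annotation lists as G6pc1, were annotated jointly to Psme3, Aoc3 and G6pc1, and no value is attributed to that gene.

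Gluconeogenesis makes new glucose from lactate, amino acids and glycerol, mainly in the liver during fasting, while glycolysis breaks glucose down to pyruvate. The pathways share most of their enzymes and differ at a few irreversible steps, and most of the enzymes examined here work at those steps. Pc (pyruvate carboxylase) and Pck1 (cytosolic phosphoenolpyruvate carboxykinase) carry pyruvate back to phosphoenolpyruvate, Fbp1 (fructose-bisphosphatase) removes a phosphate from fructose bisphosphate, and G6pc releases free glucose. Pklr (liver and red cell pyruvate kinase) and Hk2 (hexokinase of muscle and fat) work in the direction of glycolysis, and Pfkfb1 makes and removes the signal molecule that sets the balance between phosphofructokinase and Fbp1. Slc2a2 (GLUT2) is the glucose transporter of the hepatocyte surface and Slc2a4 (GLUT4) is the insulin-responsive one of muscle and fat. In adipocytes Pc and Pck1 serve lipid synthesis: Pc supplies oxaloacetate for citrate export and NADPH, and Pck1 supplies the glycerol backbone of triglyceride.

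Male Wistar rats, an outbred stock, were 3 weeks old when obtained and were fed for 9 weeks on diets whose carbohydrate and fat gave 65% and 15% of energy (low fat, L), 60% and 20% (moderate, M) or 35% and 45% (high, H). Fat came from soybean oil and lard, and the diets held the same lard. L rats ate ad libitum, M and H rats received the same energy as L, and all were fasted for 17 h before dissection. RNA of each rat and tissue was hybridised to its own Affymetrix rat genome array, giving 31 arrays: liver of 5 L, 4 M and 4 H rats, and white (WAT) and brown adipose tissue (BAT) of 5 L and 4 H rats. Rats are named below by diet and number (L1 to L5, M6, M8, M9, M10, H12, H13, H15, H16). The depot from which WAT was taken was not given in the sources used here, and the tissues came from the same rats, so they are not independent samples.

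All values are log2 probe set intensities. Liver, WAT and BAT were summarised by different methods (RMA, qFARMS and GCRMA), so a level in one tissue cannot be set against a level in another, and a difference between tissues in the effect of diet was not tested. The qFARMS method gives many probe sets a single value on every array: in WAT 83.6% of probe sets varied by less than 0.001, against 34.8% in BAT and 0 in liver. The 17 probe sets that passed limma in WAT were all of this kind, with a largest log2 fold change of 5.84e-06. The tissue labels held: Alb, the main plasma protein of hepatocytes, was 14.29 on average in liver, Adipoq (adiponectin) 13.28 in WAT, and Ucp1, the uncoupling protein of brown adipocytes, 14.70 in BAT (Ucp1 held one value in WAT). Alb was also read in WAT, from 7.83 to 12.71, and in BAT, from 12.62 to 13.36. Skeletal muscle transcripts were present in BAT of 2 rats: the mean of 14 muscle genes was 6.29 in H13 and 7.22 in H15, against 3.98 to 4.11 in the other 7 rats.

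The bases before the transcription start are shown for Pck1 and Slc2a2, the 2 genes with values here whose upstream bases held one of 4 short motifs searched on both strands. The motifs were ACGTCA (bound by cAMP-response factors), CACGTG (an E-box), TGTTTNC (forkhead factors) and TGACCTN (nuclear receptors). Of 33469 RefSeq promoters of 300 bases in the GRCr8 assembly, 7.94%, 6.42%, 21.1% and 16.1% held them, and 7 of the 9 genes had a promoter in that table. Each sequence below is the 250 bases before the start on the plus strand, at chr3:182348322-182348571 for Pck1 and chr2:113540120-113540369 for Slc2a2, and capitals mark the motif matches.
Pck1: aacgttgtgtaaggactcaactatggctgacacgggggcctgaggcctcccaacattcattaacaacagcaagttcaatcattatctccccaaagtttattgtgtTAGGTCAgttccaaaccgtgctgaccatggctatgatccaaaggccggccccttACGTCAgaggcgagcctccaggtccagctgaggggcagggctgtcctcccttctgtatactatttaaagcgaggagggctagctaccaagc
Slc2a2: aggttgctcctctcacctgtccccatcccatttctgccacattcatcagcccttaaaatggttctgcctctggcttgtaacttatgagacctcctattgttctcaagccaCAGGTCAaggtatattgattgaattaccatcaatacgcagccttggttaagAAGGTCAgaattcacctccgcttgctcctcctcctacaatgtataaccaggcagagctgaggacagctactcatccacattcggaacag
In Pck1 the match to ACGTCA began 91 bases before the start, and a reverse match to TGACCTN began 145 bases before it. Slc2a2 had 2 reverse matches to TGACCTN, beginning 140 and 89 bases before its start. Neither gene was called between diets in liver, nor was Pck1 in BAT. Both genes held one value in WAT, as Slc2a2 did in BAT, so nothing can be said of their response in those cases.

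In the liver, the gluconeogenic enzymes kept high levels on all diets, and no member changed by more than 0.23 (log2) from L to H. None of the 8 members passed limma (adjusted p under 0.05) between any pair of diets, where 0.0354% of all probe sets passed for L against H, 0.00644% for L against M and 0.0129% for M against H. None was called by the rank products method of the study either. That method called 0.677% of probe sets higher and 0.744% lower in H than in L, 0.142% and 0.245% in M than in L, and 0.422% and 0.341% in H than in M. The 3 liver comparisons share arrays and do not count as separate evidence. From L to H, 4 members had a higher and 4 a lower mean, with a median log2 fold change of -0.01, and the median size of the change was 0.17 for the members and 0.06 over all probe sets. Fbp1 and Pc were the 2 of 8 with an unadjusted limma p under 0.05 from L to H, where 9.05% of the array met that mark (2.42% had a p under 0.01, Fbp1 among them), and Fbp1 and Pfkfb1 from M to H, where 5.89% did. Macrophage markers (4 genes) had a mean of 6.90 to 7.02 in L, 6.87 to 7.65 in M and 7.01 to 7.40 in H. Hepatocyte markers (5 genes) had a mean of 13.46 to 13.56 in L and 13.55 to 13.63 in H. Of these 5, 2 had a higher and 3 a lower mean in H, and 2 had an unadjusted limma p under 0.05. The part of these cells in the values of the members was not tested.

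Fbp1 showed the clearest separation in liver. Its 5 L values were 12.61, 12.51, 12.59, 12.63 and 12.51, the 4 M values 12.45, 12.59, 12.45 and 12.62, and the 4 H values 12.32, 12.40, 12.48 and 12.32. Every H rat thus lay below every L rat, while the M rats overlapped both groups. The log2 fold change from L to H was -0.19 (SE 0.06, limma adjusted p = 0.344), or 0.875 of the L level, and it kept between -0.23 and -0.17 when any rat was left out. Across all probe sets, 1.46% were lower in H than in L without overlap. From M to H the change was -0.15 (SE 0.06, limma adjusted p = 0.817).

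Pc followed the same order of means in liver, L over M over H, but with overlapping rats. The L values were 9.85, 9.71, 9.73, 9.51 and 9.70, the M values 9.74, 9.64, 9.49 and 9.60, and the H values 9.55, 9.60, 9.51 and 9.45. A single L rat, L4, lay within the H range. The change from L to H was -0.18 (SE 0.07, limma adjusted p = 0.481), with -0.08 from L to M and -0.09 from M to H.

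Pck1, the enzyme whose transcription rises in fasting, differed little between rats. Its L values were 13.15, 13.07, 13.09, 13.04 and 13.06, its M values 13.15, 13.04, 13.09 and 13.15, and its H values 12.90, 13.01, 13.11 and 13.08. The groups overlapped and the change from L to H was -0.06 (SE 0.05, limma adjusted p = 0.813). Its mean lay above 99.8% of the liver probe sets.

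The jointly annotated G6pc probe sets are given only as such. In liver 2 of them spread widely within each diet, one over 8.31 to 10.22 in L, 7.64 to 9.93 in M and 7.70 to 9.49 in H, and the other 2 stayed between 5.84 and 7.28. All 4 held one value in WAT.

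**Figure D1:**
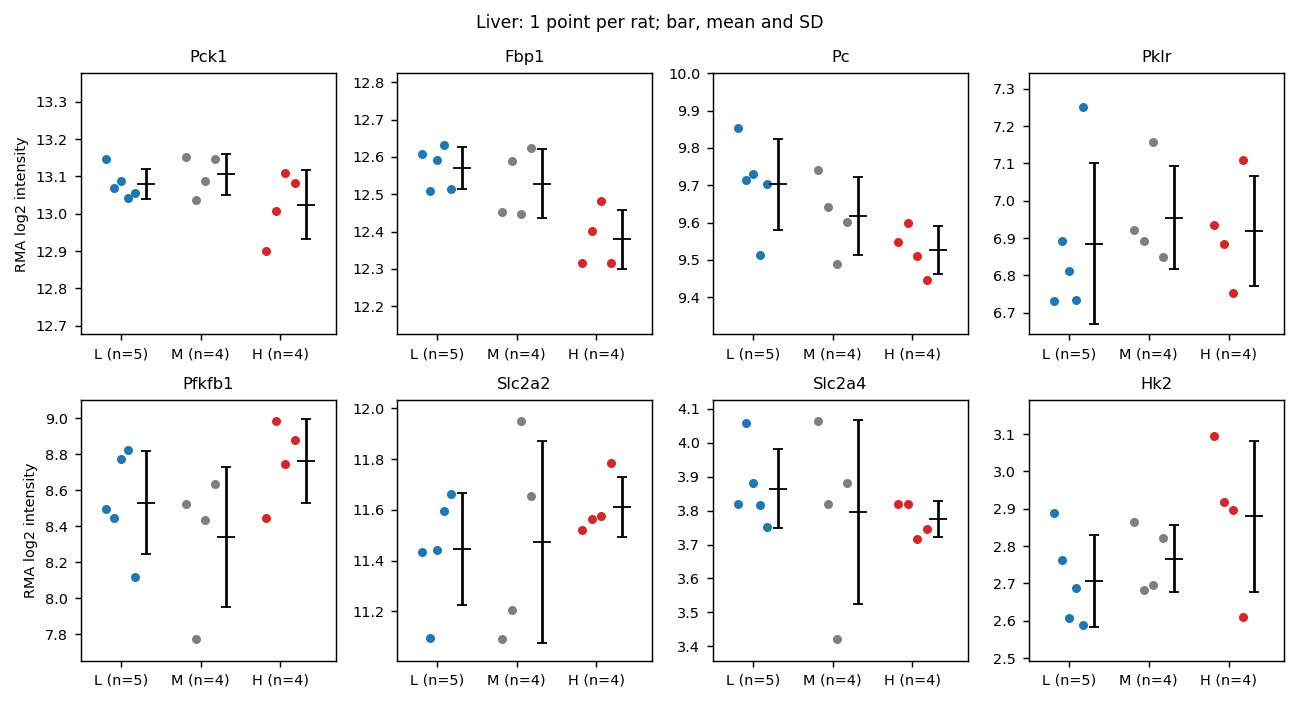
Log2 RMA intensity of the 8 members in liver (vertical axes, each with its own range) by diet group (horizontal axes), 1 point per rat, with the mean and SD beside the points. Fbp1 of the 4 H rats lies between 12.32 and 12.48, below all 5 L rats, and the other members overlap between L and H.

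On the glycolytic side of the liver set no member was called and all overlapped between diets. Pfkfb1 had the widest spread of the set: L values of 8.498, 8.45, 8.77, 8.82 and 8.12, M values of 8.53, 7.77, 8.43 and 8.63, and H values of 8.44, 8.98, 8.74 and 8.88. It was highest in H and lowest in M on average, with a change of 0.42 from M to H (SE 0.19, limma adjusted p = 0.835) and 0.23 from L to H (SE 0.18, limma adjusted p = 0.765). Without rat M8 the former was 0.23. Its 3 closest genes across the 13 livers were Atl2 (r = 0.84), Cyp27a1 (0.84) and Fmo1 (0.84) among 9252 genes compared, given as a description.

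Pklr was read by 2 probe sets. The first gave 6.73, 6.89, 6.81, 6.73 and 7.25 in L, 6.92, 6.89, 7.16 and 6.85 in M and 6.93, 6.88, 6.75 and 7.11 in H, a change from L to H of 0.03 (SE 0.11, limma adjusted p = 0.955). The second gave a change of 0.23 (SE 0.12, limma adjusted p = 0.609), with H values of 6.44, 6.44, 6.11 and 6.55 against L values of 6.12, 6.18, 6.16, 5.92 and 6.38. Both sets of values overlapped between diets.

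Slc2a2 overlapped between diets. The L values were 11.43, 11.09, 11.44, 11.60 and 11.66, the M values 11.09, 11.21, 11.95 and 11.65, and the H values 11.52, 11.56, 11.58 and 11.79. The H rats were the most alike (SD 0.12, n = 4, against 0.22 in L and 0.40 in M). The change from L to H was 0.17 (SE 0.16, limma adjusted p = 0.814).

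Slc2a4 and Hk2, the transporter and hexokinase of muscle and fat, were dim in liver. Hk2 lay above only 9.08% of probe sets, with means of 2.71 in L, 2.77 in M and 2.88 in H (SD 0.12, 0.09 and 0.20), and its change from L to H was 0.17 (SE 0.09, limma adjusted p = 0.618). The 2 probe sets of Slc2a4 changed by -0.09 (SE 0.10) and 0.03 (SE 0.08). Values this dim are close to background.

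In WAT, 5 of the 8 members (Pck1, Fbp1, Pklr, Slc2a2 and Hk2) held one value on all 9 arrays, so that nothing can be said of their response to diet. For Pck1 that value, 13.21, lay above 99.9% of probe sets. A single value of this kind does not show that the level was the same in all rats. The other 3 members, Pc, Slc2a4 and Pfkfb1, all had a lower mean in H, and Pc was the only one called, by rank products (false discovery rate 0.00553). Rank products called 1.08% of all probe sets lower in H, and 6.62% of the 5076 that held more than one value. No member passed limma, as 0.0548% of all probe sets did.

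Pc in WAT was 9.90, 9.82, 10.25, 10.39 and 9.89 in the L rats and 10.07, 9.66, 9.27 and 9.47 in H12, H13, H15 and H16. The groups overlapped through H12 alone. The log2 fold change was -0.43 (SE 0.20, limma adjusted p = 0.805), or 0.741 of the L level, and the rank products call held when each rat was left out in turn (false discovery rate 0.000612 to 0.0433).

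Slc2a4 in WAT was 7.996, 7.94, 8.21, 8.31 and 8.06 in L and 8.24, 7.88, 7.60 and 7.96 in H, a change of -0.18 (SE 0.14, limma adjusted p = 0.851). These values are from one of its probe sets, as the other held one value, 7.53, on all arrays. With the mean of its probe sets the change was -0.09 (SE 0.07). Pfkfb1 was 9.51, 9.86, 10.11, 9.69 and 9.54 in L and 10.03, 9.41, 9.20 and 9.62 in H, a change of -0.18 (SE 0.20, limma adjusted p = 0.858). In both genes H12 and H16 lay within the L range, while H13 and H15 lay below all L rats. Without H12, rank products called all 3 members lower in H, Slc2a4 at a false discovery rate of 0.0115 and Pfkfb1 at 0.0125.

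Markers of other cells also moved in WAT. The mean of 4 macrophage genes was 9.09 to 9.44 in L and 9.42 to 9.77 in H, and that of 4 endothelial genes was 9.47 to 9.77 in L and 9.67 to 10.03 in H. Mesothelial markers (2 genes) ranged from 8.16 to 11.35 over the H rats and were highest in H15, the rat lowest in Pc, Slc2a4 and Pfkfb1. Among the L rats they were highest in L4 (10.24), yet L4 was the rat highest in Pc (10.39) and Slc2a4 (8.31). The part of all these cells in the values of the members was not tested. In tissue RNA of this kind, fewer cells of a type and less RNA per cell cannot be told apart.

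In BAT, 3 members with hepatic roles (Fbp1, Pklr and Slc2a2) lay at the floor of the scale on every array, and 5 varied. Pc was lower in H than in L in every rat, Pfkfb1 and Slc2a4 had a higher mean, Hk2 a lower one, and Pck1 an equal one. No member passed limma, and neither did any of the 31042 probe sets (0%), 1387 of them (4.47%) having an unadjusted limma p under 0.05 and 399 (1.29%) one under 0.01, Pc among them. By rank products 212 (0.683%) were higher and 409 (1.32%, or 2.02% of those with more than one value) lower in H, and Pc alone of the members was among them.

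Pc in BAT was 10.69, 11.30, 10.78, 11.004 and 11.13 in the L rats and 10.63, 10.25, 10.24 and 9.88 in the H rats. The groups did not overlap, as was the case for 0.718% of all probe sets in this direction, though H12 came within 0.1 of L1. The log2 fold change was -0.73 (SE 0.18, limma adjusted p = 0.639), or 0.601 of the L level, with a rank products false discovery rate of 0.00133. The call held when each rat was left out in turn (0.000319 to 0.0132).

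Pc was also fitted with the skeletal muscle transcripts of H13 and H15 allowed for. With the muscle score of each array as a covariate its change was -0.73 (SE 0.24). Without those 2 rats it was again -0.73 (SE 0.26, rank products false discovery rate 0.0104). The score was raised in H13 and H15 alone, so both fits rest mainly on H12 and H16 for the H group. They are not separate checks. Smooth muscle markers were lower, the mean of 4 genes being 6.25 to 7.05 in L and 5.96 to 6.33 in H. Rank products called 3 of the 4 lower. Macrophage markers were higher, with a mean of 4 genes of 3.71 to 3.97 in L and 3.97 to 4.39 in H, all 4 having a higher mean in H and 1 being called by rank products. The mean of 5 hepatocyte markers was 5.45 to 5.71 in L and 5.70 to 6.05 in H, with 1 call, Cyp2e1 (1.62, SE 0.32), while Alb (-0.07, SE 0.17) and Ttr (-0.01, SE 0.14) were not called. The part of these cells in the values of the members was not tested.

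Hk2 in BAT was 7.10, 7.34, 6.93, 7.17 and 7.02 in L and 7.25, 6.42, 7.0003 and 5.88 in H. The H rats spread more widely than the L rats (SD 0.62 against 0.15), and H12 lay near the top of the L range. The change was -0.48 (SE 0.28, limma adjusted p = 0.970), and without H16 it was -0.22. Rank products called Hk2 lower only when H12 (false discovery rate 0.00832) or H15 (0.0353) was left out.

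Pfkfb1 in BAT was 8.90, 9.18, 9.20, 8.97 and 9.05 in L and 8.92, 9.25, 9.55 and 9.66 in H. All H rats but H12 lay above all L rats, and the change was 0.29 (SE 0.16, limma adjusted p = 0.970). Its mean was thus higher in H in BAT and lower in WAT, a contrast that was not tested.

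Slc2a4 in BAT overlapped between diets in both probe sets. In the one with the higher values, L was 9.95, 9.93, 9.80, 9.63 and 10.11 and H 10.34, 9.94, 9.997 and 9.64, a change of 0.10 (SE 0.15), with H12 above all L rats and the other 3 H rats within their range. The second gave 0.02 (SE 0.07), with H12 and H15 above all L rats and H13 below them. Both numbers include H13 and H15, and skeletal muscle itself expresses this transporter and Hk2. Without those rats the changes of Slc2a4 and Hk2 were 0.11 and -0.55.

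Pck1 in BAT was 14.48, 14.48, 14.44, 14.41 and 14.44 in L and 14.54, 14.54, 14.53 and 14.18 in H. The first 3 H rats lay above all L rats and H16 below them, so that the means were equal at 14.45 (change -0.001, SE 0.08).

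**Figure D2:**
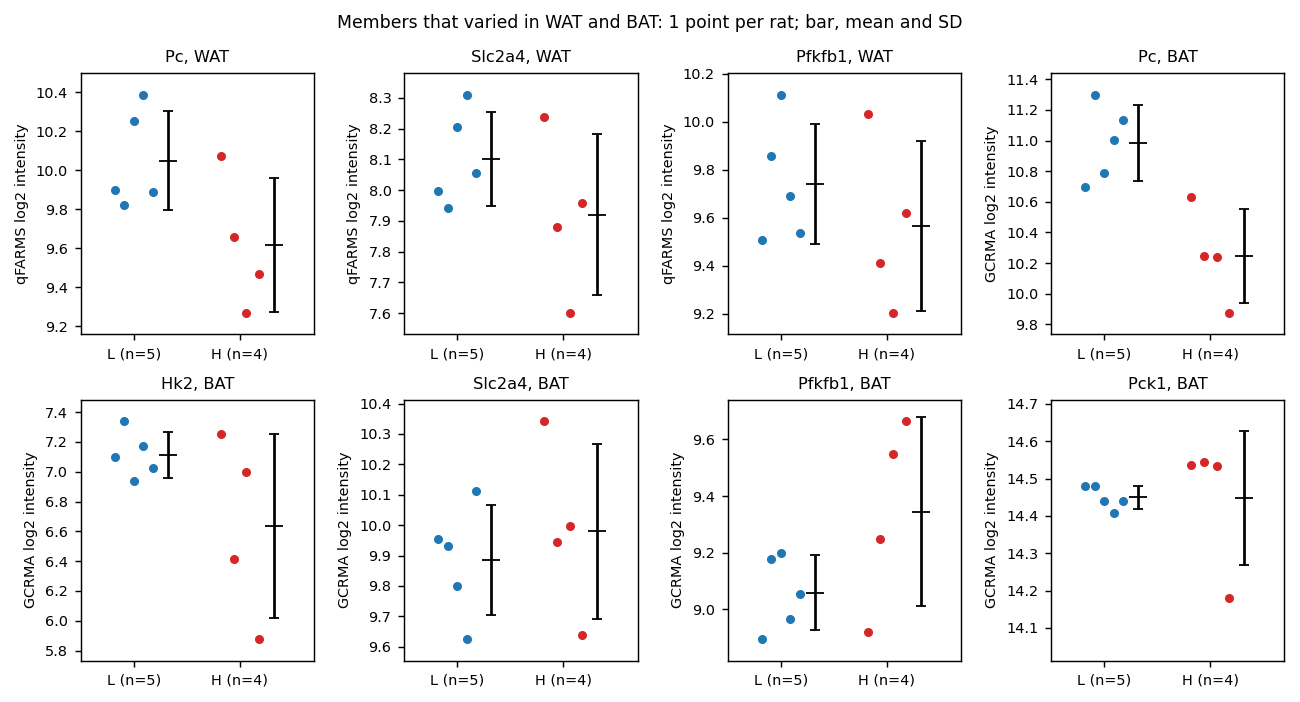
Log2 intensity (vertical axes, each with its own range; qFARMS in WAT, GCRMA in BAT) of the members that varied in WAT and BAT, by diet (horizontal axes), 1 point per rat, with the mean and SD beside the points. Pc in BAT is the only panel without overlap, with H rats at 9.88 to 10.63 and L rats at 10.69 to 11.30.

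**Figure D3:**
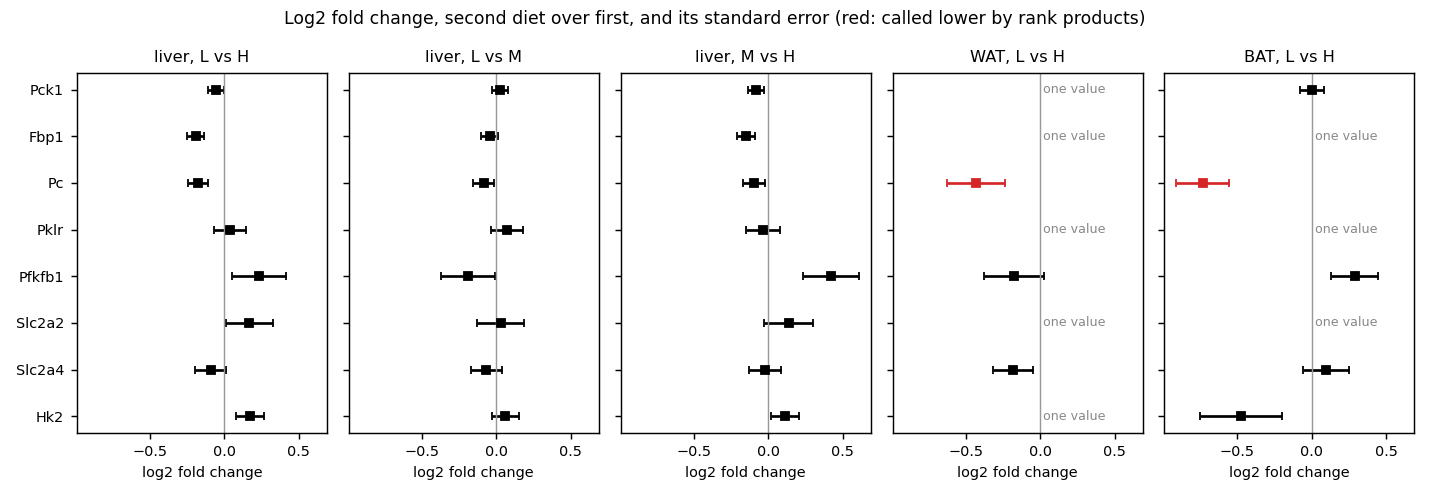
Log2 fold change (horizontal axes, second diet over first) of each member in the 5 comparisons, with its standard error as bars. Pc, in red where rank products called it lower, stands at -0.43 in WAT and -0.73 in BAT, and "one value" marks members that did not vary in that tissue.

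Pc thus had a lower mean in H than in L in all 3 tissues, by -0.18 in liver, -0.43 in WAT and -0.73 in BAT. Mpc1, a subunit of the carrier that brings pyruvate into the mitochondrion, was in the list of other gluconeogenic and substrate supply genes. It had the same directions as Pc, but was named for its small limma p in these data, so this is not separate evidence. Mpc1 in liver was 11.42, 11.28, 11.31, 11.49 and 11.34 in L and 11.16, 11.13, 11.22 and 11.17 in H, without overlap, a change of -0.20 (SE 0.06, limma adjusted p = 0.343). Rank products did not call Mpc1 in liver, and 1.46% of all probe sets were lower in H without overlap. In WAT it was 11.25, 11.56, 11.23, 11.60 and 11.35 in L and 11.31, 10.44, 10.55 and 10.61 in H, with H12 again among the L rats. That change was -0.67 (SE 0.19, limma adjusted p = 0.623), and rank products called it lower (false discovery rate 0.000238). In BAT it was 13.26, 13.29, 13.17, 13.23 and 13.35 in L and 13.002, 13.04, 12.998 and 12.70 in H, without overlap, a change of -0.32 (SE 0.07, limma adjusted p = 0.588). Rank products did not call Mpc1 in BAT, and 0.718% of all probe sets were lower in H without overlap there. Mpc2, the other subunit, changed by -0.08 (SE 0.09), -0.05 (SE 0.05) and 0.13 (SE 0.12) in liver, WAT and BAT.

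**Figure D4:**
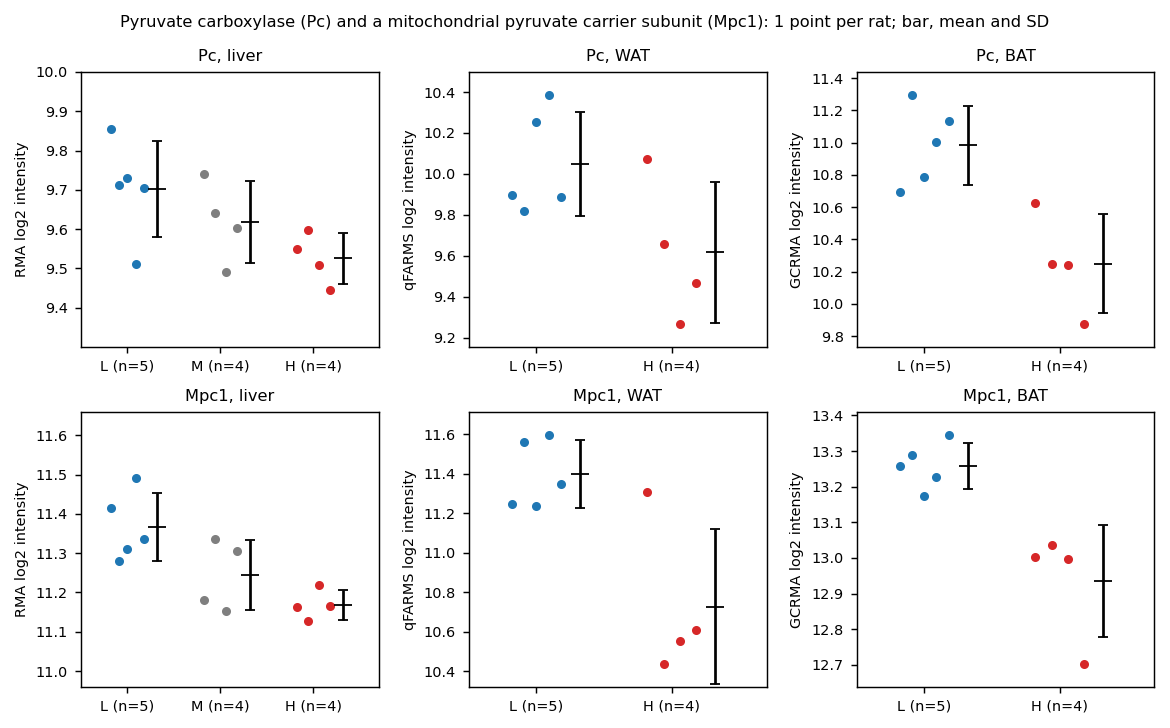
Log2 intensity (vertical axes, each with its own range and the summary method named) of Pc in the upper row and Mpc1 in the lower row, in liver, WAT and BAT by diet, 1 point per rat, with the mean and SD. The mean is lowest in H in all 6 panels, and rat H12, the first H point, lies within the L range in both WAT panels.

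Members varied together across rats in WAT. Over the 9 rats Pc correlated with the varying probe set of Slc2a4 at r = 0.930 (exact permutation p = 0.000289, 0.000868 adjusted over 3 pairs; rho = 0.917, adjusted exact p = 0.00394). The relation was r = 0.828 without H15 and L4, the rats farthest from the median of Pc, and 0.937 with the diet means subtracted, so that it was present within the diets. Pc with Pfkfb1 gave r = 0.702 (adjusted exact permutation p = 0.0347; rho = 0.667, adjusted 0.0589), and Pfkfb1 with Slc2a4 gave 0.759 (adjusted exact permutation p = 0.0249; rho = 0.683, adjusted 0.0589). The qFARMS summary and the composition of the pieces are shared by all 3 genes, and their part in the relation was not tested.

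In BAT 10 pairs were compared. Pc and Hk2 gave the highest correlation, r = 0.803 (adjusted exact permutation p = 0.0479), but rho was 0.667 (adjusted exact permutation p = 0.196) and r was 0.534 without H16 and L2. The relation was weaker without those rats, and r was 0.760 with the diet means subtracted. The other 9 pairs had adjusted p values for r of 0.130 or more.

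In liver 28 pairs were compared over 13 rats. Slc2a2 and the brighter probe set of Slc2a4 ran in opposite directions (r = -0.842, permutation p adjusted over the pairs 0.00896; rho = -0.786, adjusted 0.0466; r = -0.692 without M6 and L2, and -0.846 with diet means subtracted). The second Slc2a4 probe set gave r = 0.18 with Slc2a2, so that the relation was seen in one dim probe set alone. The second was dimmer still, above 9.78% of liver probe sets against 34.9% for the first. It therefore cannot decide whether the relation holds for the gene. By rank alone, Pc also correlated with Slc2a2 (rho = -0.742, adjusted permutation p = 0.0470, with r = -0.637, adjusted permutation p = 0.274). The same held for Pc and the brighter Slc2a4 probe set (rho = 0.763, adjusted permutation p = 0.0466, with r = 0.558, adjusted permutation p = 0.399). The dimmer Slc2a4 probe set had the opposite sign with Pc (rho = -0.311, r = -0.31).

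**Figure D5:**
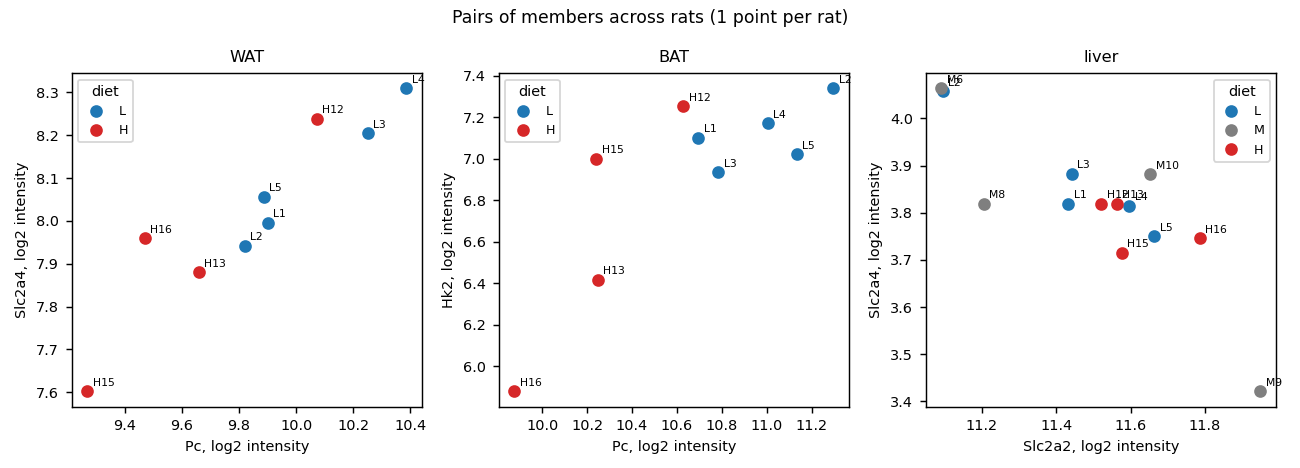
Log2 intensities of pairs of members, 1 point per rat, coloured by diet and labelled with the rat: Slc2a4 against Pc in WAT, Hk2 against Pc in BAT, and Slc2a4 against Slc2a2 in liver. The WAT points follow one line through both diets (r = 0.930). The BAT relation is weaker without H16 and L2 (r = 0.803 with all rats, 0.534 without them). The liver points fall from L2 and M6 to M9 (r = -0.842).

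The genes whose values followed Pc most closely differed by tissue. Across the 9 BAT arrays they were Ebp (r = 0.983) and Insig1 (0.977), which belong to cholesterol synthesis and its control, and Pnpla3 (0.981), a lipase of lipid droplets, of 8925 genes compared. Insig1 in BAT was 11.49, 12.48, 11.69, 12.13 and 11.95 in L and 11.27, 10.64, 10.61 and 10.43 in H, without overlap. In WAT the closest of 3032 genes were Adcy6 (0.962), Ankef1 (0.933) and Slc2a4 (0.930). For Hk2 in BAT they were Ece1 (0.979), Zfp330 (0.978) and Ppp2cb (0.973). These are descriptions over 9 arrays that share diet and normalisation.

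Among the other genes of these pathways, the glycolytic enzymes had 1 rank products call in all comparisons together. Of 16 with a probe set of their own, none passed limma in any comparison and none was called by rank products in liver or WAT. In WAT 7 of these 16 held one value. The call was Eno3, a muscle enolase, in BAT (0.90, SE 0.54), named after its value was seen. It was 5.35 in H13 and 6.01 in H15, the rats with muscle transcripts, and 3.43 to 4.02 in the other 7 rats. In BAT Gpi, which interconverts glucose and fructose phosphates, was lower in all H rats than in all L rats (-0.34, SE 0.09). The median log2 fold change of the list from L to H was -0.04 in liver (16 varying genes), 0.01 in WAT (9) and 0.02 in BAT (15), where the median over all probe sets was -0.001, 0 and 0.

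Among the other control genes of fructose bisphosphate, 1 was called in each adipose tissue. In WAT only 1 of the 5 measured genes varied, and it was the one called. Pfkfb3, an isoform that favours glycolysis, was called higher in WAT of H rats by rank products (0.61, SE 0.32), at 11.72, 10.77, 11.14, 10.64 and 11.10 in L and 12.18, 10.92, 11.66 and 11.99 in H. Pfkfb4 was called higher in BAT (0.74, SE 0.31), at 6.09, 7.05, 6.97, 6.01 and 7.26 in L and 7.72, 7.27, 7.12 and 7.55 in H, and all 4 varying genes of the list had a higher mean in H there, as Pfkfb1 did. Both genes overlapped between diets. Of all probe sets, most of which held one value in WAT, 0.763% were called higher there, and 0.683% in BAT. In liver none of the 5 measured genes of this list was called.

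In the list of 22 other gluconeogenic and substrate supply genes, rank products called 2 lower and none higher in liver of H against L. Of all probe sets it called 0.744% lower there, 0.142% higher and 0.245% lower in M than in L. In H against M these shares were 0.422% and 0.341%. The 2 genes were Gpt (-0.48, SE 0.29), which turns alanine into pyruvate, and Sds (-0.34, SE 0.62), which does so with serine. The Sds change was smaller than its SE, and Sds was named after its value was seen. Gpt was also called lower in M than in L (-0.525, SE 0.29). Sds was called higher in M than in L (0.62, SE 0.62) and lower in H than in M (-0.96, SE 0.66), and its livers ranged from 5.56 to 8.27 within L alone. Gpd2, the mitochondrial glycerol phosphate dehydrogenase, was called lower in M than in L (-0.61, SE 0.25) and higher in H than in M (0.69, SE 0.26). In WAT, where 1.08% of all probe sets were called lower, the 2 called were Mpc1 and Gpd1, the cytosolic glycerol phosphate dehydrogenase (-0.37, SE 0.15).

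In BAT rank products called 1.32% of all probe sets lower. The one gene of that list called was Slc25a10, the mitochondrial dicarboxylate carrier, which was lower in H. Its values were 7.78, 8.25, 7.78, 8.59 and 7.84 in L and 7.01, 6.26, 6.45 and 6.79 in H, without overlap, a change of -1.42 (SE 0.23, limma adjusted p = 0.402). Pck2, the mitochondrial form of Pck1, was higher in all H rats (0.40, SE 0.10), at 6.25 to 6.75 against 5.98 to 6.19, and 0.838% of all probe sets were higher in H without overlap. Of the glycogen genes, Gys1 (glycogen synthase of muscle and fat) was called lower in BAT (-0.49, SE 0.15), with no overlap. None of the 16 was called in liver. In WAT 9 of the 16 held one value, and none of the 7 that varied was called.

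Of 26 regulators of these enzymes, rank products called 4 in liver (L against H) and 7 in BAT. Over all probe sets it called 0.677% higher and 0.744% lower in liver, and 0.683% and 1.32% in BAT. In BAT 3 of the 26 held one value. In the other liver comparisons, 1 regulator was called lower in M than in L and 1 lower in H than in M. In liver of H against L, rank products called Srebf1 (0.75, SE 0.17), an insulin-driven activator of lipid synthesis genes, and Ppargc1b (0.52, SE 0.19) higher in H, and Onecut1 (-2.12, SE 0.49) and Foxa2 (-0.42, SE 0.39) lower. Onecut1, a hepatocyte transcription factor, was 10.66, 11.69, 9.77, 10.78 and 9.50 in L, 10.37, 9.50, 9.92 and 11.24 in M and 8.79, 9.34, 7.20 and 8.14 in H. All H rats lay below all L and M rats (1.42% of probe sets were lower in H than in M without overlap), yet the limma adjusted p values of these 26 genes did not pass 0.05. In BAT, Ppargc1b was higher without overlap (0.75, SE 0.11), as Klf15, Nr0b2 and Ppara were called higher, and Txnip (-0.51, SE 0.14), Foxo3 (-0.55, SE 0.21) and Gcgr (-0.43, SE 0.23) were called lower. In WAT 16 of the 26 regulators held one value, and none of the 10 that varied was called. Foxa2, Klf15, Ppara and Gcgr were named after their values were seen.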

How the data were processed

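The authors summarised the scanned arrays with RMA (liver), qFARMS (WAT) and GCRMA (BAT) in R and Bioconductor, and deposited log2 values for each tissue apart; arrays give no read depth, so the number of rats limits the precision. Of the probe sets, 57 controls were left out, 20826 had one gene symbol in the platform annotation, 436 several and 9780 none. Groups were taken from the labels, 1 array per rat and tissue; 2 rats of the M and H groups with reduced intake had been left out by the authors. Each tissue was fitted apart with limma 3.58.1 (R 4.3.3) over all 31042 probe sets, with Benjamini-Hochberg adjustment and a threshold of 0.05 (liver: all 3 diets in one fit). The method of the study, rank products, was computed over all pairwise ratios with 100 permutations and a false discovery rate of 0.05. Where a gene had several probe sets, the one with the highest mean in the tissue was used for counts and figures. On values simulated from the L and H livers alone, limma recovered 57 of 89 probe sets changed by 0.5 and 106 of 111 changed by 1 (log2). It also called 7 unchanged ones. The simulation held no changes as small as those of the members in liver and did not cover WAT or BAT. It therefore does not show how well such changes would be found. Correlations used 100000 permutations in liver and all permutations in WAT and BAT, two-sided. Promoters were those of RefSeq (GRCr8); Pc and Slc2a4 had no entry.

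The members and the gene lists were chosen with earlier results of these data known. Named genes were all members, up to 4 genes per list and comparison with the smallest limma p, the 3 genes most correlated with a member whose log2 range in a tissue was above 1, and others as stated. Alternatives were other filters, scalings, array weights, probe set choices, thresholds and leaving out each rat; the fits without H13 and H15 and the rank products without each rat were chosen after seeing the data.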

Additional observations from a re-analysis of the deposited data

Results flagged for a closer look

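Of 40 groups of member values tested for a rat that stood apart from the others, 1 did: Pck1 in BAT of rat H16, at 14.18 against 14.53 to 14.54 in the other 3 H rats. Chance flags about 1 in 20 such groups. H16 also held the lowest H value of Pc and Hk2 in BAT. Without H16 the log2 fold change of Pck1 in BAT was 0.09 in place of -0.001.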

How the results depend on the processing

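No paired analysis was possible because no rat received 2 diets, the diet groups share no rat numbers, and the tissues of a rat were never put in one fit. Of 668 values for 32 member fold changes, 646 kept their direction and side of the threshold and 20 reversed. No member was called under any limma alternative with adjusted p. At an unadjusted p under 0.01 the count was 1 in liver L against H (Fbp1; 2.42% of all probe sets passed) and 1 in BAT (Pc; 1.29%), and by rank products 1 in WAT and 1 in BAT (Pc both times), with 1 to 3 in WAT and 1 to 2 in BAT when each rat was left out. Reversed values were -0.0478 for Slc2a2 in liver L against M with array weights, 0.0381 for Slc2a4 in liver L against M and 0.0448 for Pklr in liver M against H with the mean of a gene's probe sets, and 0.0519 and 0.0775 for Pck1 in BAT after a second quantile normalization and with array weights. Leaving out each rat in turn gave ranges across 0 for Pklr (-0.0277 to 0.127 in liver L against H, -0.0979 to 0.0327 in M against H), Slc2a2 (-0.129 to 0.157, L against M), Slc2a4 in liver (-0.158 to 0.0563 in L against M, -0.147 to 0.0674 in M against H), Pck1 in BAT (-0.0332 to 0.0888) and Slc2a4 in BAT (-0.0246 to 0.210). The cause was not tested.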

Other observations

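Rat H12 lay at one end of the H group in several members of both adipose tissues, as H16 did in BAT. Some rat lies at each end for every gene, and the WAT members varied together, so these places are not separate observations. In WAT it was the highest H rat for Pc (10.07), Slc2a4 (8.24) and Pfkfb1 (10.03), within the L range each time. In BAT it was the highest H rat for Hk2 (7.25) and the lowest for Pfkfb1 (8.92), within the L range, and the highest H rat for Pc (10.63, below all L rats) and Slc2a4 (10.34, above all L rats). In liver it was the lowest of the 4 H rats for Pck1 (12.90) and Pfkfb1 (8.44) and the highest for Hk2 (3.10). Insig1 and Mpc1 in WAT, which are no members, were also highest of the H rats in H12, at 12.14 and 11.31. In BAT, H16 was the lowest H rat for Pc (9.88), Hk2 (5.88), Pck1 (14.18) and the brighter Slc2a4 probe set (9.64), and the highest for Pfkfb1 (9.66). With 1 piece of each tissue per rat, the values of H12 and H16 have no replicate within the rat.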
